A study of Mus musculus with 77 samples.

Results

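The change of the oxygen effect in the murine retina between P17 and P28 was analyzed, that is, the difference between OIR and control mice on P28 minus the same difference on P17. All probes other than control spots were used, 55681 in number, on the 52 retina arrays of these days out of 77 in the series. OIR mice had breathed 75% oxygen from P7 to P12 and then room air, and control mice had stayed in 21% oxygen. All mice were C57BL/6, each array held the pooled retinas of a single mouse, and every mouse was used for a single day. The P17 groups held 13 OIR and 12 control animals, those of P28 13 and 14. Whole litters were randomized to hyperoxia or normoxia, and the litter of a mouse is not given in the sources used here, so litter and group cannot be told apart.

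In this model high oxygen stops the growth of the young retinal vessels and obliterates part of them. After the return to room air the avascular retina is hypoxic, and the neurons and Mueller glia release vascular endothelial growth factor. New vessels then sprout toward the vitreous around P17, and most of these tufts regress over the following days. Hypoxia acts through hypoxia-inducible factors, which bind promoters at a short core motif and raise genes of glycolysis, vessel growth and mitochondrial turnover. Injured retina also shows reactive gliosis, in which Mueller glia and astrocytes raise intermediate filaments and signal through gp130 and STAT3. As whole retinas were used, fewer cells of a type and less RNA per cell cannot be told apart.

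Retina RNA was hybridized with universal mouse reference RNA, and values are log2 ratios of retina over reference. The sample labels assign Cy5 to the retina, but Cy3 exceeded Cy5 for 3 rod genes (*Sag*, *Pde6b* and *Gnat1*) on all 77 arrays, by at least 2.05 on the log2 scale, so Cy3 was taken as the retina and the signs given here oppose the dyes of the labels. A positive OIR effect is a higher mean in OIR than in control mice of that day, and a negative interaction is an OIR effect that was lower on P28 than on P17. Of the 11 slides none held all 4 groups. Both P17 groups were together on 6 slides, with 12 OIR and 8 control mice, and both P28 groups on 3 slides, with 11 OIR and 8 control mice. On the P28 arrays of these 3 slides 30815 to 34305 probes per array passed the background test of the scanner software for the retina dye (well above background). The range was 16883 to 32934 for the other 8 P28 arrays and 13764 to 29993 for the P17 arrays. Some P17 control arrays were on these 3 slides too and had fewer such probes than the P28 arrays there. Results were therefore also computed with the slide as a block and, chosen after seeing the data, within the slides shared by both groups of a day.

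The OIR effect differed between the days for 147 probes, which is 0.264% of those tested (limma, Benjamini-Hochberg adjusted p under 0.05). It was lower on P28 for 119 of them (0.214%) and higher for 28 (0.0503%). In terms of genes, each taken with its brightest probe, 99 of 21154 had a lower and 23 a higher OIR effect on P28. All 99 had a higher mean in OIR than in control retina on P17, with 97 of them overexpressed in the P17 comparison, and all 23 had a lower mean, with 17 of them called. The interaction subtracts the P17 effect, so these directions follow in part from how the genes were picked. With the slide as a block 238 probes were called, and 109 of the 147 were called again. Of the 238, 97 (40.8%) had a higher OIR effect on P28, against 28 of 147 (19%) without the block. Within shared slides 1266 probes were called, 784 of them (61.9%) higher, including 136 of the 147.

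On P17 alone 831 probes (1.49%) differed between OIR and control mice, with 517 higher (0.929%) and 314 lower (0.564%). On P28 38 probes (0.0682%) did, with 37 higher (0.0664%) and 1 lower (0.0018%). With the slide as a block 3.25% of probes were called on P17, 0.12% on P28 and 0.427% in the interaction. The mice of the 2 days were different animals, and 25 probes were called on both days in the same direction, which is 3.01% of the P17 calls and 65.8% of the P28 calls. Most of the P17 difference was thus no longer called on P28, whereas most of what was called on P28 had been called on P17. Of the 147 probes of the interaction, 95 had a P28 difference whose 95% confidence interval included 0 and 52 had one that excluded it. Among genes, 114 were called in the interaction but not on P28, 8 in both, and 20 on P28 only. For 79 of the 114 the P28 interval included 0 and for 35 it did not. Over the 21154 genes, 1.87% were called higher and 1.1% lower on P17, and 0.132% higher on P28. In the interaction 0.468% were called lower and 0.109% higher. Within shared slides the interaction was called lower for 308 and higher for 607 of the 21154 genes. The counts of gene lists are to be read beside these shares.

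**Figure D1:**
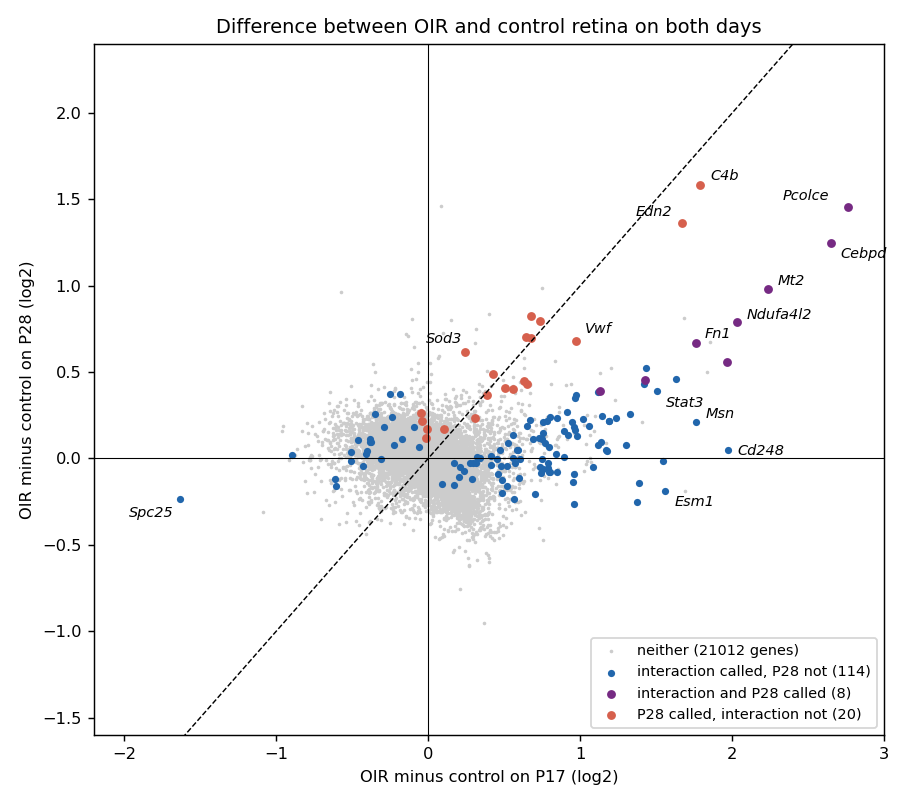
OIR effect on P17 (horizontal axis, log2) against the OIR effect on P28 (vertical axis, log2) for 21154 genes, with the line of equal effects dashed. The 114 genes called in the interaction but not on P28 (blue) have P28 effects from -0.26 to 0.52 with a median of 0.046. The 8 genes called in both (purple) have P28 effects above 0, and *C4b* and *Edn2* are among the 20 genes called on P28 only (orange).

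Of 20 measured genes of the endothelial tip cell, which leads a sprout, 7 were overexpressed on P17, 5 had a lower OIR effect on P28 and 0 differed on P28. The median OIR effect of this list was 0.18 on P17 and 0.024 on P28, beside medians of -0.0027 and 0.0034 over all genes. *Esm1*, which encodes the tip cell proteoglycan endocan, measured -0.47 at the lowest, 0.22 in the median and 1.27 at the highest in OIR mice of P17, against -2.24, -1.18 and -0.47 in control mice. On P28 the corresponding values were -2.72, -2.18 and -0.34 in OIR mice and -2.32, -2.02 and -1.11 in control mice. Of the 13 OIR mice, 12 lay above all control mice on P17 and 2 on P28. These 2, at -0.34 and -0.76, were the OIR mice on slides without P28 control mice, and the other 11 measured at most -1.81. The highest control values of P28, -1.40 to -1.11, likewise came from slides without P28 OIR mice. The OIR effect of *Esm1* was 1.56 ± 0.22 (SE) on P17 and -0.19 ± 0.21 on P28, an interaction of -1.75 ± 0.31 (adjusted p = 0.000797). Its signal exceeded background well in all 13 P17 mice with OIR but 1 of 12 controls, and in 6 of 13 and 3 of 14 animals of P28, so that the size of the difference is limited by the background. In the ratios processed by the authors the effects of *Esm1* were 5.62 on P17 and 0.82 on P28 (adjusted p = 0.75), with an interaction of -4.80.

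*Apln*, the gene of the angiogenic peptide apelin, had an OIR effect of 1.42 on P17 and 0.43 on P28, with an interaction of -0.99 (adjusted p = 0.00294). All 13 OIR mice were above the control median on both days, but on P28 only 7 were above the highest control mouse, and the P28 difference was not called (adjusted p = 0.337). In the ratios processed by the authors the P28 difference of *Apln* was 1.97 and was called (adjusted p = 0.000121), so whether it had returned depended on the processing. The study lists *Apln* among the genes overexpressed on P28. *Cd34* and *Trp53i11* had interactions of -1.07 and -0.88, and that of *Unc5b*, a netrin receptor of vessels, was -0.53. *Plxnd1*, the endothelial receptor of class 3 semaphorins, lies outside the lists and was picked after its values were seen. Its OIR effect was 1.42 on P17 and 0.45 on P28, and all 3 comparisons called it (adjusted p = 1.94e-15 on P17, 0.0257 on P28 and 1.48e-05 for the interaction).

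Among 27 endothelial identity genes 10 were overexpressed on P17 and 1, *Vwf*, on P28. The list median was 0.11 on P17 and 0.081 on P28. *Cd93*, *Egfl7* and *Eng* had lower OIR effects on P28, and the other 24 genes were not called in the interaction. *Egfl7*, a protein that endothelial cells secrete into their matrix, fell from an OIR effect of 1.09 ± 0.082 to -0.048 ± 0.079 (interaction -1.13, adjusted p = 5.4e-09). Its values on P17 were 1.69 to 2.55 in OIR mice and 0.71 to 1.43 in control mice, without overlap, and on P28 they were 0.15 to 1.15 and 0.55 to 0.90. *Cd93*, a lectin-like receptor of the endothelium, had an interaction of -1.17 (adjusted p = 2.72e-05), but a P28 difference of 0.46 whose interval ran from 0.23 to 0.70 (adjusted p = 0.154, and 0.012 with the slide as a block). *Eng*, a coreceptor for transforming growth factor beta, had OIR effects of 0.59 and 0.047. The junction genes *Pecam1* and *Cldn5* were called on neither day, with P17 effects of 0.059 and 0.11 and P28 effects of -0.0071 and 0.34.

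With the offset of 50 the largest interaction of the 21154 genes was that of *Cd248* (-2.42 in the authors' ratios, where that of *Esm1* was larger), which encodes endosialin, a membrane protein of pericytes and perivascular fibroblasts. On P17 *Cd248* ranged from -0.67 through a median of 0.082 to 0.60 in OIR mice and from -2.64 through -2.02 to -0.96 in control mice, with no overlap. On P28 the ranges were -3.74 to -1.50 with a median of -2.99, and -3.53 to -2.26 with a median of -3.09. These overlapped, as 7 of 13 OIR mice lay above the control median. The 2 highest OIR values of P28, -1.50 and -1.82, were from the mice on slides without P28 control mice, and the other 11 measured at most -2.66. The OIR effect was 1.97 ± 0.21 on P17, a 3.93-fold difference, and 0.049 ± 0.20 on P28, with an interaction of -1.93 ± 0.29 (adjusted p = 4.06e-05). Non-overlapping groups with OIR mice higher were found for 0.117% of all probes on P17 and for 0.00539% on P28.

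Of 18 pericyte and smooth muscle genes, 7 were overexpressed on P17 and 0 on P28, and the list median was 0.45 on P17 and -0.0074 on P28. Besides *Cd248*, the OIR effect fell for *Myl9*, a myosin light chain of contractile cells (1.19 to 0.22), and *Higd1b*, a pericyte marker (0.96 to 0.18). The pericyte proteoglycan gene *Cspg4* had OIR effects of 0.73 on P17 and -0.12 on P28 and an interaction of -0.86 that was not called (adjusted p = 0.11), but was called within shared slides (-0.71, adjusted p = 3.26e-05).

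Most hypoxia response genes called on P17 were not called on P28. Of 23 measured genes of glycolysis and lactate export 5 were overexpressed on P17 and 0 on P28, and 4 had a lower OIR effect on P28. *Pfkp*, a phosphofructokinase at the committed step of glycolysis, lay between 1.06 and 2.29 in OIR mice of P17 with a median of 1.71, and between 0.10 and 0.81 in control mice with a median of 0.54. On P28 the OIR mice lay between 0.74 and 1.61 with a median of 1.35, and the control mice between 0.90 and 1.58 with a median of 1.32. The P17 groups did not overlap, and on P28 the range of OIR mice enclosed that of control mice. The OIR effect went from 1.18 ± 0.11 to 0.043 ± 0.10 (interaction -1.13, adjusted p = 2.65e-06). *Slc16a3*, the lactate exporter MCT4, showed OIR effects of 1.17 and 0.049, and *Pfkl*, another phosphofructokinase, 0.70 and -0.21. The interaction of *Gpi1*, the next enzyme upstream, was -0.61 and was lost with the slide as a block (adjusted p = 0.0701).

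Among 25 other hypoxia targets 9 were overexpressed on P17 and 1 on P28, and *Ndufa4l2*, *Bnip3*, *Vegfa* and *Fam162a* had lower OIR effects on P28. *Vegfa* measured 0.25 to 0.82 in OIR and -0.73 to -0.19 in control mice on P17, without overlap, and -0.49 to 0.015 and -0.62 to -0.25 on P28. Its OIR effect was 0.97 ± 0.067 on P17 and 0.16 ± 0.065 on P28, with an interval on P28 of 0.034 to 0.29 that excluded 0 although the difference was not called (adjusted p = 0.542). *Bnip3*, a receptor for the removal of mitochondria, had OIR effects of 0.84 and 0.025 (interaction -0.82, adjusted p = 9.62e-05). For *Fam162a*, a mitochondrial protein raised by hypoxia, the OIR effects were 0.75 and 0.11.

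The promoter of *Bnip3* is shown since it carries the hypoxia response core ACGTG on both strands. It is the RefSeq sequence of the 250 bases before the start of transcription, on GRCm38.p6 at chr7:138909507-138909756, minus strand, with the motif in capitals.
Bnip3: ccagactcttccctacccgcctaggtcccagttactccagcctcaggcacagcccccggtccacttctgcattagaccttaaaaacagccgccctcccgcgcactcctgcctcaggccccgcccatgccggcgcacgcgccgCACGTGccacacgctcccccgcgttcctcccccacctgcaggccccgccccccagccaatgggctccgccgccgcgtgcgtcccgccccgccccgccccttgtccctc
Both strands were searched, and the 2 matches overlap in the 6 capital letters. Of all 32851 promoters of this length 16.6% held the motif, and of the 92 promoters found for 76 of the 99 genes with a lower OIR effect on P28, 19.6% did. For the 28 genes called on P28, 19 promoters of 16 genes were found and 5.26% held it. These shares are a description of letters and not of binding.

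*Ndufa4l2*, which encodes a hypoxia-induced relative of a respiratory chain subunit, did not return fully. OIR mice measured 2.09 to 3.05 on P17 with a median of 2.55 and 0.63 to 1.44 on P28 with a median of 1.11. Control mice measured 0.092 to 0.75 and 0.12 to 0.58, with medians of 0.55 and 0.31. All 13 OIR mice lay above every control mouse on both days. The OIR effect was 2.03 ± 0.084 on P17 and 0.79 ± 0.081 on P28 (interaction -1.25, adjusted p = 1.08e-09). In the reference channel alone, which should not differ, this gene was 0.73 higher on arrays of OIR mice on P17 (adjusted p = 1.06e-09), the only probe called there on that day. In the ratios processed by the authors the interaction was -0.69 (adjusted p = 0.269) and the P28 difference 0.76 (adjusted p = 0.0693), so both calls were lost there.

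Reactive glia genes formed the list with the highest P17 median, 0.73, and it was 0.19 on P28. Of 22 genes 13 were overexpressed on P17 and 3 on P28, and 4 had a lower OIR effect on P28. The 3 of P28 were *Cebpd*, *Edn2*, which injured photoreceptors release, and *Lad1*, a basement membrane filament gene. They are thus not markers of glia alone, and none of the filament genes *Gfap*, *Vim* and *Nes* was called on P28. In the ratios processed by the authors 7 genes of this list were called on P28, with *Cebpd* and *Lad1* but not *Edn2* among them. In those ratios 98 of all 55681 probes were called on P28. *Nes*, the intermediate filament nestin of immature and reactive glia, had an OIR effect of 1.55 ± 0.19 on P17, with all 13 OIR mice above every control mouse, and -0.015 ± 0.18 on P28. *Vim*, the filament vimentin, had OIR effects of 1.19 and 0.22. *Gfap*, the filament that marks gliosis, ranged from 0.44 to 1.51 in OIR mice and from 0.0038 to 0.55 in control mice on P17, and from 0.17 to 1.19 and 0.23 to 0.61 on P28. Its interaction was -0.61 (adjusted p = 0.0176) and its P28 difference 0.37, the control median being exceeded by 12 of 13 OIR mice, and an interval of 0.18 to 0.55 (adjusted p = 0.139). With the slide as a block the interaction of *Gfap* was not called (adjusted p = 0.134). The resting genes of Mueller glia and astrocytes went the other way in their median, -0.25 on P17 and 0.054 on P28. None of these 18 genes was called in the interaction. With the slide as a block 2 had a called interaction above 0, beside 97 of all 55681 probes. Within shared slides 6 had one, beside 607 of all 21154 genes, but none was called on P28 itself. Among the 6 was the water channel gene *Aqp4* (interaction 0.65, adjusted p = 0.00641).

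*Stat3*, the transcription factor downstream of gp130, had an OIR effect of 1.51 ± 0.13 on P17 and 0.39 ± 0.13 on P28 (interaction -1.12, adjusted p = 0.000305). On P17 the OIR mice lay between 0.75 and 2.08 and the control mice between -0.38 and 0.070, and on P28 between -1.07 and 0.68 and between -1.12 and -0.23. *Cebpd*, a transcription factor induced by STAT3 in the acute phase response, stayed higher. Its values were -1.31, 0.26 and 1.89 (lowest, median and highest) in OIR and -3.25, -2.46 and -1.33 in control mice on P17, and -2.05, -0.45 and 0.46 and -2.31, -1.72 and -1.22 on P28. OIR mice above every control mouse numbered 13 of 13 on P17 and 11 of 13 on P28. The OIR effect fell from 2.65 ± 0.24 to 1.25 ± 0.23 (interaction -1.41, adjusted p = 0.0351) and was called on P28 (adjusted p = 0.00616, but 0.0979 within shared slides). The other 21 of 23 genes of this pathway were not called in the interaction, and 5 genes of the list were overexpressed on P17.

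Among 13 metallothioneins and zinc transporters the metallothioneins *Mt1* and *Mt2*, which bind zinc and copper, were the ones called in the interaction. *Mt2* measured -1.71, -0.45 and 0.38 (lowest, median and highest) in OIR and -3.31, -2.78 and -2.10 in control mice on P17. On P28 it measured -2.55, -2.01 and -1.36 in OIR and -3.71, -2.88 and -2.52 in control mice, with 12 of 13 OIR mice above every control mouse. The OIR effect was 2.24 ± 0.17 on P17 and 0.98 ± 0.16 on P28, where it was still a 1.98-fold difference (adjusted p = 0.000858). The interaction was -1.25 (adjusted p = 0.00177). *Mt1* had OIR effects of 1.44 and 0.52 and an interaction of -0.91 (adjusted p = 0.00194), and its P28 difference was just short of the threshold (adjusted p = 0.0586, and 0.0238 with the slide as a block).

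Both promoters are shown since these neighboring genes moved together. Capitals mark matches on either strand to TGCNCNC, a looser form of the metal response core TGCRCNC (R is A or G). They are the 250 bases before the start of transcription in RefSeq, on GRCm38.p6 at chr8:94178839-94179088 for *Mt1* and chr8:94172368-94172617 for *Mt2*, plus strand.
Mt1: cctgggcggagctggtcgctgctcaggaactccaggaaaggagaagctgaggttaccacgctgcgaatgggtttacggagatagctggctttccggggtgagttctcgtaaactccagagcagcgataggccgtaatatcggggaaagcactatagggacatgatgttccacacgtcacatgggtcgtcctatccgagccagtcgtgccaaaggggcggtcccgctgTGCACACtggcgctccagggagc
Mt2: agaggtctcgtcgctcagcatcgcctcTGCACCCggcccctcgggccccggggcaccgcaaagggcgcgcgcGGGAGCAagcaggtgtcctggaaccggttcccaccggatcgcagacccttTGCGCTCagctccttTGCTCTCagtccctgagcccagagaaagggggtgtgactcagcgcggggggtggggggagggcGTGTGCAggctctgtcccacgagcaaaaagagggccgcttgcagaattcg
*Mt1* held 1 match and *Mt2* 5. The motif is short, as 44.4% of all promoters held it and 50% of those of the genes with a lower OIR effect on P28. A STAT site, TTCNNNGAA on either strand, was in 7.02% of all promoters and in 2.17% of those of the same genes.

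Some extracellular matrix genes had a lower OIR effect on P28, and most were not called in the interaction. *Pcolce*, which enhances the removal of the procollagen C-propeptide, had the largest OIR effect on P17 of the 21154 genes with the offset of 50, which shrinks the differences of dim probes. In the authors' ratios its effect of 3.41 was below those of *Esm1* (5.62) and *Edn2* (4.22). For *Pcolce*, OIR mice measured -2.44, -1.39 and -0.19 (lowest, median and highest) and control mice -4.72, -3.99 and -3.56 on P17. On P28 the values were -3.71, -2.80 and -1.71 against -5.05, -4.29 and -3.22, and 11 of 13 OIR mice exceeded every control mouse. The OIR effect of *Pcolce* was 2.76 ± 0.21 on P17 and 1.46 ± 0.21 on P28, a 2.75-fold difference that was called (adjusted p = 6.27e-05). The interaction of -1.30 was called (adjusted p = 0.0282) but not with the slide as a block (adjusted p = 0.0865). *Bmp1*, the C-proteinase that *Pcolce* enhances, had OIR effects of 0.95 and 0.21, and *Loxl2*, which crosslinks collagen, 1.12 and 0.077. These 3 were the called genes among 16 collagen maturation enzymes.

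Of 20 basement membrane and collagen genes 10 were overexpressed on P17 and 2 on P28, with list medians of 0.69 and 0.10. The interaction was called for 1 of the 20. In the authors' ratios it was called for 9, beside 471 of all 55681 probes. *Fn1*, which encodes fibronectin, had OIR effects of 1.76 ± 0.13 and 0.67 ± 0.12, both called, and an interaction of -1.09 (adjusted p = 0.000184). *Col18a1*, the basement membrane collagen that yields endostatin, had OIR effects of 0.68 and 0.83, called on both days (adjusted p = 0.0239 and 0.021), and an interaction of 0.15 with an interval of -0.33 to 0.63. On P28 only 4 of 13 OIR mice had a *Col18a1* value above every control mouse, and the call was lost with the slide as a block (adjusted p = 0.0934). The collagen IV chains *Col4a1* and *Col4a2* had OIR effects of 1.09 and 1.05 on P17 and 0.16 and -0.017 on P28, with interactions of -0.93 and -1.06 that were not called (adjusted p = 0.245 and 0.201).

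Several further genes with large interactions lie outside the lists. *Msn*, which encodes moesin and links membranes to actin, had OIR effects of 1.76 ± 0.16 and 0.21 ± 0.15. For *Crip1*, a small LIM protein, they were 1.30 and 0.075. *Tagln2*, an actin-binding protein, kept a P28 difference of 0.56 (adjusted p = 0.0257) after 1.96 on P17, with 13 and 11 of 13 OIR mice above every control mouse. *Atf5*, the called gene among 20 of the integrated stress response, had OIR effects of 0.79 and -0.078. The called genes also held 8 canonical histone H2A genes and *H2aj*, with interactions between -1.09 for *H2ac23* and -0.60 for *H2ac19*. The canonical ones are near-identical copies, so a probe may not tell them apart and they are uncertain as separate genes.

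The hemoglobin genes *Hba-a1* and *Hba-a2*, which mark red blood cells, were 1.39 and 1.37 higher in OIR mice on P17 and -0.14 and -0.25 on P28. *Hba-a2* ranged from 2.88 to 6.02 in OIR and 2.56 to 3.58 in control mice of P17. The interactions of -1.53 and -1.62 were not called with the slide as a block (adjusted p = 0.0513 and 0.115). Of 10 red blood cell genes 5 were higher on P17 and 0 on P28. The mean level of this list ranged from 0.62 to 1.62 in OIR and 0.46 to 0.95 in control mice on P17, and from 0.61 to 1.28 and 0.84 to 1.18 on P28. The part of retained blood in the vessel genes was not tested.

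**Figure D2:**
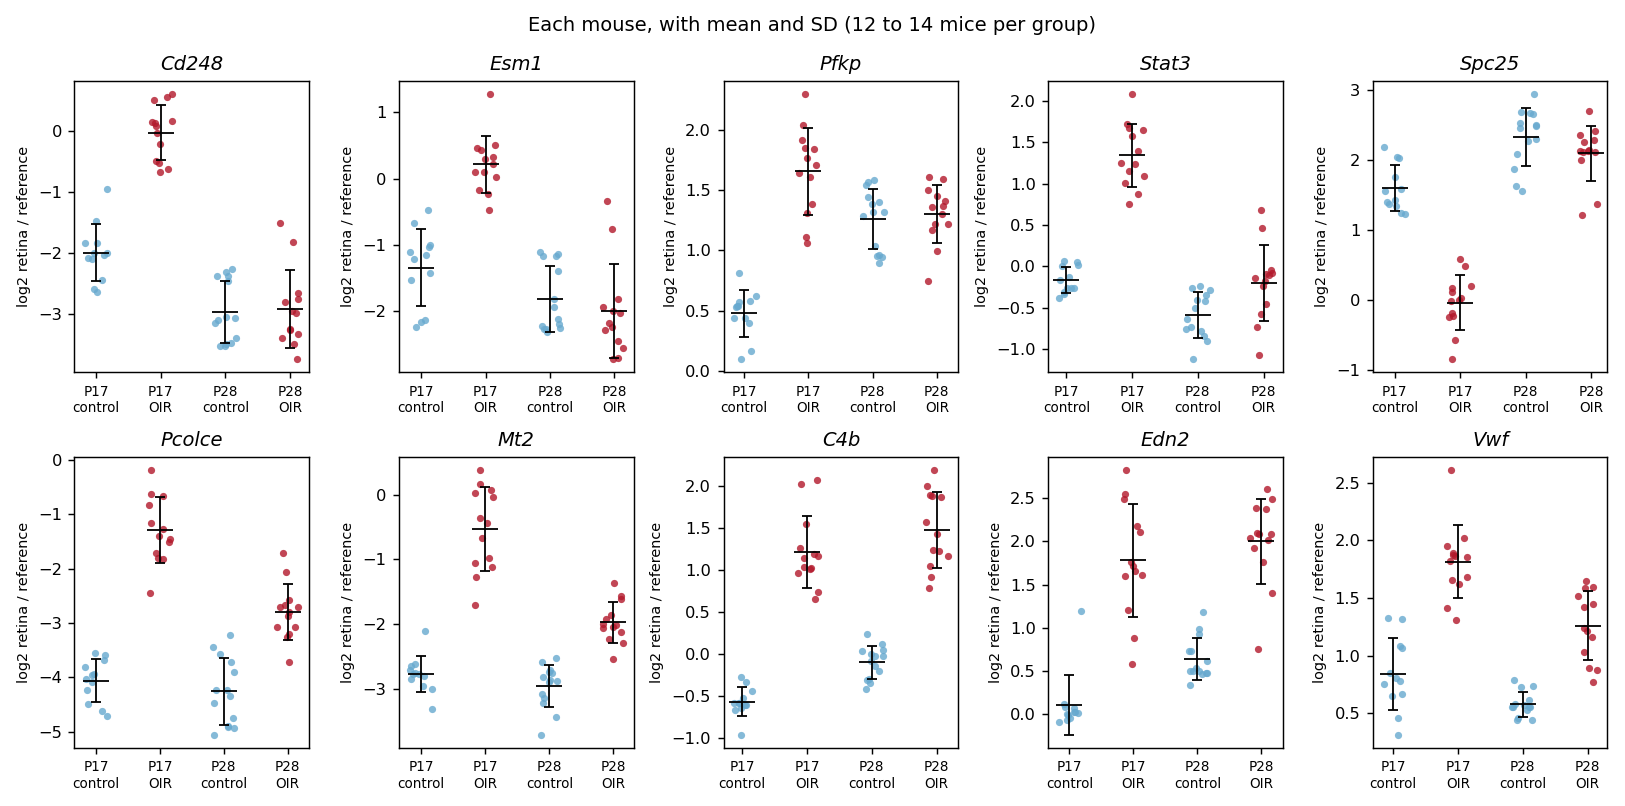
Log2 ratio of retina over reference in each mouse for 10 genes, in control (blue) and OIR (red) mice on P17 and P28; bars show the mean and SD of 12 to 14 mice. *Cd248*, *Esm1*, *Pfkp* and *Spc25* differ between groups on P17 and overlap on P28, and for *C4b* all 13 OIR mice lie above the control mice on both days.

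A smaller set of genes was still different on P28. Of the 28 genes called on P28, all higher in OIR mice, 22 were also called on P17, and for 14 of these 22 the interaction was not called. A missing call does not show that the effects were equal, and the intervals of the interaction are given for that reason. With the slide as a block 25 of the 28 were called, in the ratios processed by the authors 21, within shared slides 17, and in all of these settings 13. These 13 were *C4b*, *Pcolce*, *Mt2*, *Antxr2*, *Vwf*, *Fn1*, *Tagln2*, *Plxnd1*, *H2-K1*, *Zcchc24*, *Fgfr1*, *Spata6* and *Nudt6*.

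*C4b*, a component of the classical complement pathway, had the largest P28 difference of the 21154 genes with the offset of 50, whereas in the authors' ratios that of *Bcl3* was larger (2.21 against 2.06). For *C4b*, OIR mice measured 0.66, 1.14 and 2.07 (lowest, median and highest) on P17 and 0.79, 1.43 and 2.20 on P28. Control mice measured -0.96, -0.58 and -0.27 on P17 and -0.41, -0.054 and 0.24 on P28. No control mouse reached an OIR mouse on either day. The OIR effect was 1.79 ± 0.13 on P17 and 1.58 ± 0.13 on P28, and the interaction was -0.20 with an interval of -0.58 to 0.17 (adjusted p = 0.595). In the ratios processed by the authors the effects were 3.47 and 2.06 and the interaction -1.41 was called (adjusted p = 0.00111). *C4b* was thus higher on P28 in both, and whether its effect had become smaller depended on the processing. Its probe was well above background in 9 of 12 control mice of P17 and in all mice of the other groups. *Serping1*, the inhibitor of the C1 complex, had OIR effects of 0.74 ± 0.16 and 0.79 ± 0.16, and 10 of 13 OIR mice were above every control mouse on P28. Its P28 difference was lost in the authors' ratios (0.47, adjusted p = 0.771) and within shared slides (adjusted p = 0.0559). Of 20 complement genes 3 were overexpressed on P17, 2 on P28 and 0 were called in the interaction, and the list medians were 0.10 and 0.027.

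*Edn2*, the gene of the vasoconstrictor endothelin 2, which injured photoreceptors release, measured 0.58, 1.71 and 2.83 in OIR mice on P17 and 0.75, 2.08 and 2.61 on P28. Control mice measured -0.097, 0.017 and 1.19 on P17 and 0.33, 0.52 and 1.19 on P28. All 13 OIR mice lay above the control median on both days, and 11 and 12 of them above every control mouse. The OIR effects were 1.67 ± 0.18 and 1.36 ± 0.17, and the interaction was -0.31 with an interval of -0.82 to 0.19. Only 3 of 12 control mice of P17 had a signal well above background. In the authors' ratios the P17 effect was 4.22, the P28 effect 0.48 (adjusted p = 0.835) and the interaction -3.74 (adjusted p = 0.00018), so that the persistence of *Edn2* rested on the way the signal was processed.

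*Vwf*, the von Willebrand factor of endothelial cells and platelets, had OIR effects of 0.97 ± 0.11 and 0.68 ± 0.10 (adjusted p = 2.89e-09 and 0.000194). On P28 OIR mice ranged from 0.77 to 1.65 and control mice from 0.44 to 0.79, and 12 of 13 OIR mice were above every control mouse. Its interaction of -0.29 had an interval of -0.59 to 0.0054. *Antxr2*, a receptor for collagen and laminin fragments, had OIR effects of 0.67 ± 0.10 and 0.69 ± 0.10, and the P28 groups did not overlap (-0.73 to -0.10 in OIR and -1.48 to -0.75 in control mice). The noncoding transcript *2900057B20Rik* had OIR effects of 0.65 and 0.70, of which the second was -0.23 in the authors' ratios (adjusted p = 0.851). *Krt18*, a keratin, had 0.43 and 0.49.

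Immune genes contributed 2 further members. *H2-K1*, a class I antigen presentation gene, had OIR effects of 0.63 and 0.45 (adjusted p = 2.34e-05 and 0.0323), with an interaction of -0.18. *Csf1r*, the receptor on which microglia depend, had 0.51 and 0.41 (adjusted p = 0.000291 and 0.0368). It was the only one of 21 microglia and macrophage genes called on P28 with the offset of 50, but 5 were called in the authors' ratios (*Csf1r*, *Ctss*, *Tyrobp*, *Trem2* and *Lyz1*) and 2 with the slide as a block. Over all 55681 probes 38, 98 and 67 were called on P28 in these settings, in that order. The marker *Aif1* had OIR effects of 0.33 and 0.044 and *Cx3cr1* 0.19 and 0.31. By contrast *H2-Ab1*, a class II gene, had OIR effects of 0.92 and 0.27 and an interaction of -0.65 (adjusted p = 0.000385). *Fgfr1*, a fibroblast growth factor receptor, had 0.56 and 0.40.

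The 6 genes called on P28 and not on P17 were *Sod3*, *Apoc1*, *Lad1*, *Pter*, *Defb9* and *Abi3bp*. *Sod3*, the extracellular superoxide dismutase, had OIR effects of 0.24 and 0.62, and *Apoc1*, an apolipoprotein, -0.048 and 0.26. None of them was called in the interaction (adjusted p between 0.0628 for *Apoc1* and 0.495 for *Lad1*), so an onset after P17 was not shown. The difference of *Lad1*, a basement membrane filament gene, was 0.17, and 11 of 13 OIR but only 4 of 14 control retinas of P28 had a signal well above background.

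**Figure D3:**
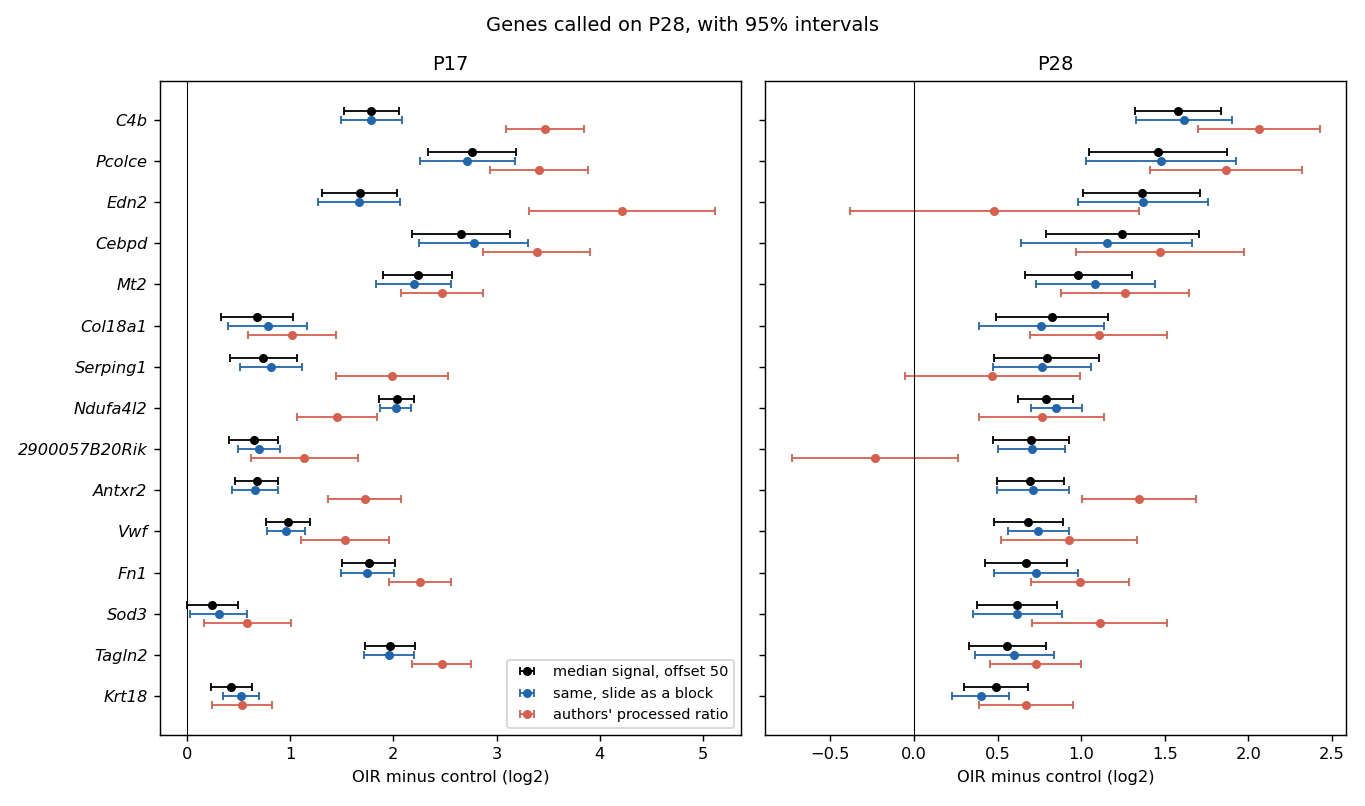
OIR effects (horizontal axes, log2, with 95% confidence intervals) on P17 and P28 for the 15 genes with the largest called P28 difference, from median signals with offset 50 (black), the same with the slide as a block (blue) and the ratios processed by the authors (orange). The P28 effects of *Edn2*, *Serping1* and *2900057B20Rik* were 1.36, 0.79 and 0.70 in black and 0.48, 0.47 and -0.23 in orange.

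Genes with a higher OIR effect on P28 mostly returned from below. *Spc25*, a subunit of the Ndc80 kinetochore complex, measured -0.84, 0.00043 and 0.59 (lowest, median and highest) in OIR and 1.22, 1.49 and 2.18 in control mice on P17. On P28 it measured 1.22, 2.12 and 2.69 and 1.55, 2.47 and 2.94. All 13 OIR mice lay below every control mouse on P17 (0.00898% of all probes), and the groups overlapped on P28. The OIR effect was -1.64 ± 0.15 on P17 and -0.24 ± 0.15 on P28 (interaction 1.40, adjusted p = 5.28e-05). The other 3 subunits had interactions below 0, opposite to *Spc25*, and were not called. Of 20 cell division genes 0 were called on P17, on P28 or in the interaction, but 19 had an interaction below 0. Their list median was 0.27 on P17 and -0.20 on P28. Within shared slides 6 of them were called higher on P17, beside 1273 of all 55681 probes. *Enpp2*, which encodes the lysophospholipase autotaxin, was -0.90 ± 0.12 in its OIR effect on P17 and 0.018 ± 0.12 on P28 (interaction 0.91, adjusted p = 0.00161). The 14 genes of the pigment epithelium, a tissue next to the retina, had the highest interaction median of the 36 lists, 0.505 (1.24 in the authors' ratios). None was called in the interaction or on P28, and 1, *Rpe65*, was lower on P17. The mean level of this list ranged from 0.15 to 0.78 in OIR and 0.21 to 1.08 in control mice on P17, and from -0.044 to 1.25 and 0.028 to 1.13 on P28, with medians of 0.26, 0.58, 0.56 and 0.26. The part of pigment epithelium in the result for *Enpp2* was not tested.

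*Plpp3* and *Efemp1* had OIR effects of -0.25 and -0.18 on P17 and 0.38 and 0.37 on P28, with neither day called, and interactions of 0.63 and 0.56 that were. *Plpp3* encodes a lipid phosphatase that degrades lysophosphatidic acid, the product of autotaxin, and *Efemp1* a fibulin of the matrix. *Prdx6*, an antioxidant peroxiredoxin, had OIR effects of -0.35 and 0.26 and an interaction of 0.61 (adjusted p = 0.000153), with all 13 OIR mice below the control median on P17 and above it on P28. *Nptn*, *Mex3c*, *Serinc1*, *Cdk14* and *Srp19* had interactions between 0.48 and 0.57, each with a negative OIR effect on P17.

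Of 23 respiratory chain genes 7 were lower in OIR mice on P17 and 0 on P28, and the list median went from -0.25 to 0.015. *Ndufs1*, the largest subunit of complex I, ranged from -0.075 to 0.37 in OIR and 0.25 to 0.60 in control mice on P17, and from 0.28 to 0.78 and 0.36 to 0.76 on P28. Its OIR effect was -0.31 ± 0.050 on P17 and -0.0020 ± 0.048 on P28, and its interaction of 0.31 (adjusted p = 0.0214) was the only one called in this list, though not with the slide as a block (adjusted p = 0.0674). The ATP synthase genes *Atp5g3* and *Atp5md* were among the 12 largest rises, at 0.55 and 0.48, and the mitochondrial pyruvate carrier *Mpc1* had an interaction of 0.47. Within shared slides the interaction was called above 0 for 5 respiratory chain genes and below 0 for 1. Over all 21154 genes these counts were 607 and 308. No respiratory chain gene was called on P28 itself in that setting.

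Several neuronal lists had negative medians on P17. For 18 ganglion cell genes the medians were -0.32 and -0.022, for 17 amacrine cell genes -0.29 and 0.020, for 26 transmitter receptor genes -0.22 and 0.063, and for 23 voltage-gated channels -0.21 and 0.032. None of their members was called in the interaction. With the slide as a block 1 ganglion cell, 1 receptor and 2 channel genes were, all above 0, beside 97 of all 55681 probes. In the ratios processed by the authors the median interaction of the channels was -0.0057 against 0.32, that of bipolar cell genes -0.34 against 0.18, that of synaptic vesicle genes -0.20 against 0.12, that of amacrine cell genes 0.057 against 0.31, and that of resting Mueller glia genes -0.031 against 0.23. On P28 the medians were -0.089 for synaptic vesicle and -0.36 for rod genes. Within shared slides 4 ganglion cell, 2 amacrine cell, 5 receptor and 5 channel genes had a called interaction, all above 0. In that setting 607 of all 21154 genes did, and no member of these lists was called on P28 itself. *Nefl*, the light neurofilament chain of ganglion cell axons, had OIR effects of -0.77 (adjusted p = 0.013) and -0.053. Its interaction was 0.72 without the block (adjusted p = 0.288) and 0.68 within shared slides (adjusted p = 0.0166). The neuropeptide gene *Cck* had OIR effects of -1.09 (adjusted p = 1.31e-05) and -0.31, and its interaction was 0.78 (adjusted p = 0.176) and 0.82 (adjusted p = 0.000102) in the same 2 settings.

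**Figure D4:**
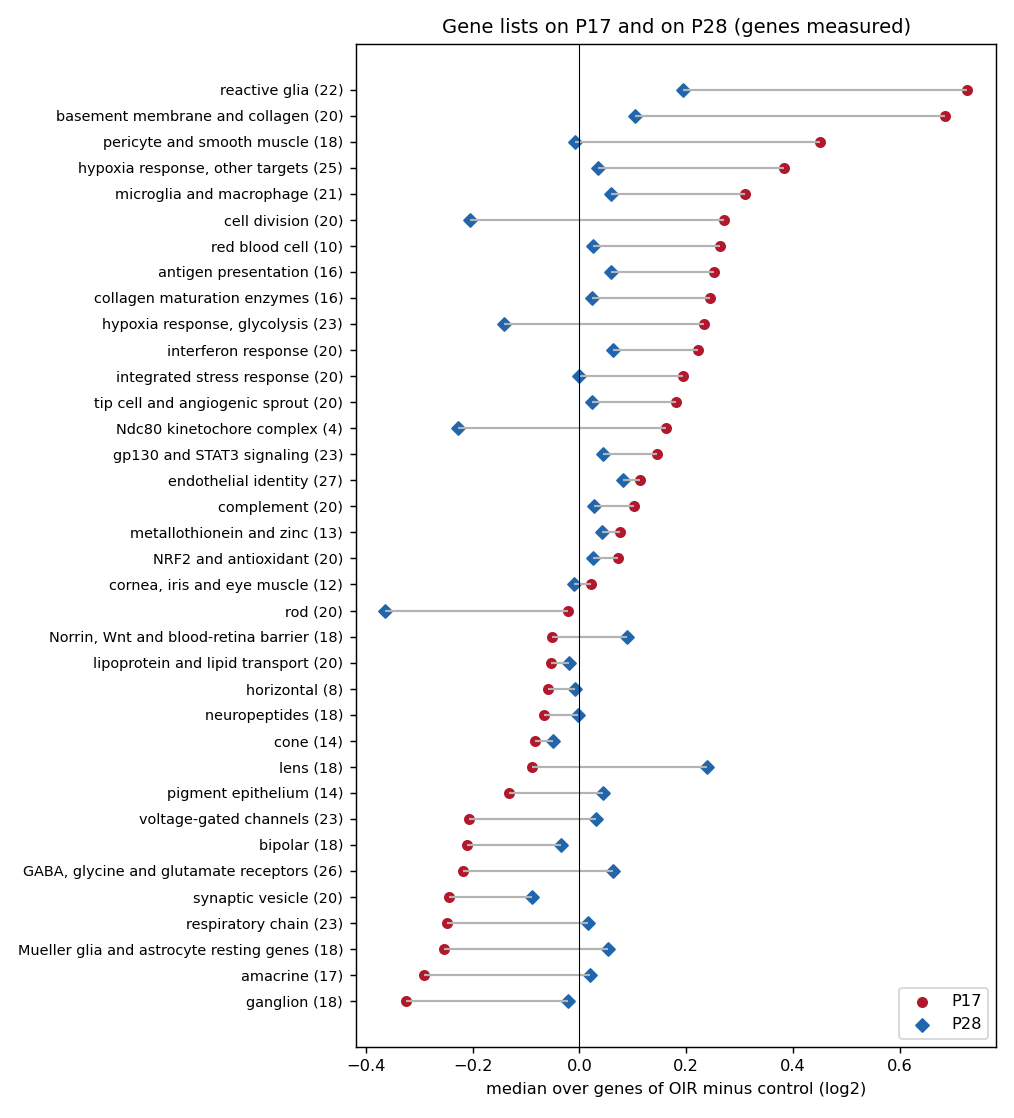
Median OIR effect (log2) over the measured genes of each of 36 lists on P17 (red circles) and P28 (blue diamonds), with the number of genes in brackets. Reactive glia (0.73 to 0.19) and basement membrane genes (0.69 to 0.10) lie highest on P17, ganglion cell genes (-0.32 to -0.022) lowest, and on P28 most medians lie near 0.

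Lists without a call in the interaction were the Norrin and Wnt genes of the blood-retina barrier, complement, microglia, interferon response, cell division, resting Mueller glia, rods, cones, bipolar, amacrine, horizontal and ganglion cells, neuropeptides, receptors, channels, synaptic vesicles, lens, pigment epithelium, and cornea, iris and eye muscle. Some of them gained calls in other settings. Within shared slides 4 bipolar cell, 4 synaptic vesicle and 4 neuropeptide genes had a called interaction above 0, beside 607 of all 21154 genes. With the slide as a block 2 neuropeptide, 2 channel, 2 resting Mueller glia, 1 ganglion cell and 1 receptor gene had one. In that setting 97 of all 55681 probes did. In the authors' ratios 3 complement, 4 microglia and 1 cell division gene had a called interaction below 0, beside 314 of all 55681 probes. In the same ratios 1 ganglion cell and 1 channel gene had one above 0, beside 157 probes. Of these lists, the rod list had a median of -0.021 on P17 and -0.36 on P28, which was 0.034 on P28 within shared slides, and 0 of its 20 genes were called on either day. In 17 lists without a call in the interaction or on P28, the first 3 markers of each, 51 genes, had interactions between -0.94 and 0.95. Lens genes, which come from tissue outside the retina, varied between mice of P28, with list means from 0.0041 to 2.95 in OIR and from 0.028 to 3.63 in control mice, and none of 18 was called. The part of lens tissue in the results was not tested.

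Of the 31 genes that the study names for the retina on these days 14 were called on P17, 5 on P28 and 6 in the interaction. *Adm* (adrenomedullin), *Bcl3*, *Nupr1* and *Tnnt2* were overexpressed on P17, with OIR effects of 1.31, 1.69, 1.83 and 0.81, and had values of 0.079, 0.81, 0.50 and 0.43 on P28. None of these 4 was called on P28 or in the interaction, whereas the study lists *Bcl3* and *Tnnt2* as overexpressed on P28 too. The study reports no significant difference between its arrays and real-time PCR for the genes it checked, *Adm* and *Tnnt2* among them. In the authors' ratios the P28 differences of *Adm* and *Bcl3* were 1.05 and 2.21 and were called (adjusted p = 0.0022 and 2.85e-05), as were their interactions. *Bcl3* was well above background in 4 of 12 control mice of P17 and 9 of 14 of P28, and *Adm* in 6 of 12 and 9 of 14.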

How the data were processed

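Gene expression was measured on 2-color arrays with 62976 spots. Per the file headers, the deposited signals are intensity values from the feature extraction run by the authors: the median signal and median local background of each spot without normalization, and processed signals after background subtraction and dye normalization. Their deposited value matrix is on the log2 scale, and on every array 100% of its values equaled the log2 ratio of processed Cy3 to Cy5 within 0.001. The study's normalization settings in its own software are not given in the sources used here.

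From the median signals, normexp background correction (offset 50) and loess within each array were computed with limma 3.58.1 in R 4.3.3 (with the package data.table, version 1.17.8), outlier spots (0.597 to 0.951% of an array) were left out, and spots of a probe were averaged. A model with 4 group means was fitted to 52 arrays, with the moderated *t*-statistic of limma, two-sided, Benjamini-Hochberg adjustment over 55681 probes and a threshold of 0.05. Probes were named through their transcript accessions and RefSeq (GRCm38.p6). Of the probes 28026 had a symbol, for 21154 genes, and the brightest probe stood for a gene. Of the genes called in the interaction 41 had more than 1 probe, all in the same direction for 35, and none had a probe called in the opposite direction. No probe was saturated on any P17 or P28 array. The precision is limited by the number of arrays, and the median SD of a probe between mice of a group was 0.0796 on P17 and 0.0888 on P28. The highest correlation between 2 arrays was 0.988 and no array was a copy of another. Each slide was scanned in 1 of 4 scan groups, so the slide as a block also covers the scan.

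Named genes were the 12 largest falls and 12 largest rises of the interaction, the 15 largest differences of P28, up to 6 called members of each of 36 lists (or its first markers) and the genes the study names. The members and lists were chosen with earlier results of these data known. Counts of lists stand beside all genes, without a test. Alternatives were the authors' ratios, no background subtraction, an offset of 10, the retina channel alone with quantile normalization, the slide as a block, a filter on dim probes, array weights, all 77 arrays, a trended and robust prior, and Bonferroni adjustment. The fits within shared slides, with P28 arrays of shared slides only, and with the authors' ratios and the slide as a block were chosen after seeing the data. The procedure was tested on simulated data.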

Additional observations from a re-analysis of the deposited data

Results flagged for a closer look

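The OIR effect differed between P17 and P28, by the test of the difference itself, for 147 probes. Among the genes named here, those with a lower OIR effect on P28 had the following interactions on the log2 scale. For vessel, sprout and mural cell genes they were -1.93 for *Cd248*, -1.75 for *Esm1*, -1.17 for *Cd93*, -1.13 for *Egfl7*, -1.07 for *Cd34*, -0.99 for *Apln*, -0.97 for *Myl9*, -0.88 for *Trp53i11*, -0.77 for *Higd1b*, -0.54 for *Eng* and -0.53 for *Unc5b*. For hypoxia genes they were -1.25 for *Ndufa4l2*, -1.13 for *Pfkp*, -1.12 for *Slc16a3*, -0.91 for *Pfkl*, -0.82 for *Bnip3*, -0.80 for *Vegfa*, -0.64 for *Fam162a* and -0.61 for *Gpi1*. For glial, signaling and stress genes they were -1.56 for *Nes*, -1.41 for *Cebpd*, -1.25 for *Mt2*, -1.12 for *Stat3*, -0.98 for *Vim*, -0.91 for *Mt1*, -0.87 for *Atf5*, -0.65 for *H2-Ab1* and -0.61 for *Gfap*.

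Matrix and cytoskeleton genes had interactions of -1.55 for *Msn*, -1.41 for *Tagln2*, -1.30 for *Pcolce*, -1.23 for *Crip1*, -1.09 for *Fn1*, -1.04 for *Loxl2* and -0.74 for *Bmp1*, and the hemoglobin genes -1.62 for *Hba-a2* and -1.53 for *Hba-a1*. A higher OIR effect on P28 was found for *Spc25* (1.40), *Enpp2* (0.91), *Plpp3* (0.63), *Prdx6* (0.61), *Nptn* (0.57), *Efemp1* (0.56), *Atp5g3* (0.55), *Mex3c* (0.50), *Serinc1* (0.49), *Cdk14* (0.49), *Atp5md* (0.48), *Srp19* (0.48) and *Ndufs1* (0.31). The causes of these differences were not tested.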

How the results depend on the processing

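The 50 named genes called in the interaction kept their direction in all 13 alternatives, and 23 (Bonferroni) to 50 of them were called again, with 43 in the authors' ratios, 42 with the slide as a block and 37 with P28 arrays of shared slides only. Numbers of calls moved more. In the interaction 147 probes were called, against 471 in the authors' ratios, 227 without background subtraction, 280 with an offset of 10, 786 in the retina channel alone, 238 with the slide as a block, 505 with array weights, 1266 within shared slides, 409 in the authors' ratios with the slide as a block and 47 with Bonferroni adjustment. On P17 and P28, 1.49% and 0.0682% of probes were called, against 4.67% and 0.176% in the authors' ratios, 3.19% and 0.12% with an offset of 10, 5.19% and 0.126% in the retina channel, 3.25% and 0.12% with the slide as a block, 3.57% and 0.219% with array weights, 4.53% and 0.145% within shared slides, 5.92% and 0.115% in the authors' ratios with the block, 2.43% and 0.0323% with P28 arrays of shared slides only, and 0.345% and 0.0198% with Bonferroni adjustment. On P17 it was 2.5% without background subtraction, and on P28 0.104% with the filter on dim probes and 0.149% with all 77 arrays. Of the list genes 5.78% were called in the interaction, against 11.4% in the authors' ratios, 9.27% with an offset of 10, 16.3% in the retina channel, 9.57% with array weights, 15.3% within shared slides, 11.2% in the authors' ratios with the block and 3.04% with Bonferroni adjustment. The share of higher calls in the interaction was 19%, 33.3% in the authors' ratios, 29.5% without background subtraction, 46.6% in the retina channel, 45.7% with array weights, 29.1% in the authors' ratios with the slide as a block and 6.38% with Bonferroni adjustment. Apart from the choice of arrays and the adjustment, the cause was not tested.

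Interactions that turned negative were all from genes not called in it. They were those of *Col18a1* (-0.021 with the slide as a block, -0.092 in the authors' ratios with the block), *Serping1* (-1.52 authors' ratios, -0.12 no background subtraction, -0.36 offset 10, -0.37 retina channel, -0.049 slide block, -0.066 within shared slides, -1.44 authors' ratios with the block), *2900057B20Rik* (-1.37, -0.075, -0.29, -0.43, -0.011 within shared slides and -1.45 in that order, without the slide block), *Antxr2* (-0.38, -0.0099, -0.079, -0.25 and -0.45), *Krt18* (-0.13 slide block, -0.16 within shared slides, -0.13 authors' ratios with the block, -0.097 P28 arrays of shared slides) and *Lad1* (-0.033 retina channel). No paired analysis was possible because no mouse number is shared between groups and every mouse was measured once. Dim probes limit what can be said, since on P17 fewer probes were well above background than on most P28 arrays and low genes such as *Esm1*, *Edn2* and *Bcl3* differ most between the offset and the authors' ratios.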
